A study of Danio rerio with 12 samples.

Results

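The regions described here were called open in melanoma (MA) cells from all 8 zebrafish tumors and were called open in none of the melanocyte (MC) samples. They come from ATAC-seq, an assay whose transposase can cut and tag only DNA that is not wrapped in nucleosomes, so that tagged ends mark open chromatin. From the peak list of each of the 12 libraries the 57910 intervals with the highest −log10 p were taken, which is the length of the shortest list, and these reduced lists were merged into 192780 regions on chromosomes 1 to 25 of the GRCz11 assembly. Regions were chosen by detection in lists ranked on −log10 p, and by nothing else. A region was kept when it was overlapped in the reduced lists of all 8 MA libraries and by no interval, however weak, in the complete lists of the 4 MC libraries. This left 1083 regions, or 0.562% of all regions, which covered 434 kb. Their absence in MC and presence in MA are therefore the definition of the set, and values that compare MA with MC at these regions, or the strength of these regions with that of others, are descriptions without a test.

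MA cells were sorted by GFP from melanoma tumors of fish of the genotype BRAFV600E/p53lf/lf/crestin:EGFP, 1 library from each of 8 fish, labeled replicates 4 to 11. MC cells were sorted by mCherry from skin, from 3 fish of the genotype BRAFV600E/+/p53+/lf/mitfa+/-/mitfa:mCherry (MC_Het, replicates 4 to 6) and from 1 fish of the genotype BRAFV600E/p53lf/lf/mitfa+/-/mitfa:mCherry (MC_Homo). All groups carry the BRAF oncogene under the melanocyte promoter of mitfa, the transcription factor that directs melanocyte development, and loss of function of the tumor suppressor p53 on at least 1 allele. The MC fish also carry the MiniCoopR vector with its mitfa minigene. MA replicates 6 to 11 were sequenced in run 3, whereas MA replicates 4 and 5 and all MC libraries were sequenced in run 2. Tumor state, reporter, tissue, mitfa genotype, for the MC_Het libraries the BRAF and p53 genotypes and, for 6 of the tumors, the sequencing run differ together between MA and MC and cannot be told apart.

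Crestin is a gene of the neural crest, the embryonic cell population from which melanocytes arise. It is largely silent in adult zebrafish and is switched on again in melanoma, which is why its reporter labels tumor cells. Open regions away from gene starts are often enhancers, where transcription factors bind and displace nucleosomes, and regions open in a tumor but not in its cell of origin are candidates for regulatory elements that differ between these states. No genome sequence or gene annotation of GRCz11 was used here, so the regions are given by position only, and their neighboring genes and motifs were not analyzed here.

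Depth, recovered from the peak scores as tags (read ends), was 6.05 to 11.5 M in MA libraries and 6.42 to 24.6 M in MC libraries, where M stands for mega. The deepest library was MC_Het replicate 5, with 266537 intervals, and it stands apart from the others. Its complete list, on its own, sets much of how many regions meet the definition. Without MC_Het replicate 5, 3056 regions met it, whereas leaving out any of the other 11 libraries gave between 1097 and 1447. When MC_Het replicate 5 alone was thinned to 6.05 M tags, 2470 regions met the definition, and all 1083 were among them. Thinning worked on the peak list, since no reads were used, and no peaks were called anew. The thinned list still held 85295 intervals, against 56630 (MC_Homo) to 69987 (MC_Het replicate 6) in the other MC lists thinned to this depth. The number of regions therefore moved with the depth of the MC libraries.

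Tumors shared many regions, and few of these lacked an MC call. Of the 18972 regions in the reduced lists of all 8 MA libraries, 9008 (47.5%) had an interval in all 4 complete MC lists, 3716 in 3, 2857 in 2, 2308 in 1 and 1083 (5.71%) in none. The opposite pattern, an interval in the reduced lists of all 4 MC libraries and in no complete MA list, was found in 318 regions. A further 14317 regions without an MC interval were found in 2 to 7 MA libraries. The number of libraries required differs between these sets, so their sizes are not compared.

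A deposited peak holds a fold enrichment and a −log10 p, both from the tag pileup at its summit and the local background of the same library. Fold enrichment is the ratio of these, with the same constant added to each. It is therefore not the plain ratio. It also depends on depth, since the genome-wide background was only 0.605 to 1.15 tags in the MA libraries. By fold enrichment and by −log10 p, the melanoma-only regions were of moderate strength in tumors. Their mean fold enrichment over the 8 tumors had a median of 12.8 (quartiles 10.3 and 15.8), against 15.4 (quartiles 11.5 and 20.8) for the 17889 other regions open in all 8 MA libraries. Their mean rank in the 57910 intervals had a median of 19216, against 13577 for the other regions. When all 18972 regions were put into 5 classes of equal size by mean rank, melanoma-only regions made up 0.922% of the strongest class and 3.77%, 6.77%, 7.91% and 9.17% of the following classes. The strongest class held 35 of them and the weakest 348. Detection in MC also requires enough signal, and its part in this trend was not tested.

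The strength of the set differed between tumors. As a percent of the reduced list, the median rank of the melanoma-only regions was lowest, that is strongest, in MA replicate 6 (18.8%), had a median of 30.8% over the 8 tumors and was highest in MA replicate 5 (39.0%). The other regions open in all 8 tumors lay between 17.6% and 24.1%, with a median of 18.9%. The melanoma-only regions ranked below these other regions in 7 of 8 tumors, and in MA replicate 6 the medians were 18.8% and 19.3%. Fold enrichment had medians between 7.48 in MA replicate 11 and 19.3 in MA replicate 6 at melanoma-only regions, with 11.7 as the median of the 8 tumors. Median ranks thus spanned a wider range over the tumors at the melanoma-only regions than at the others. MA replicates 6, 7 and 8 had the highest median fold enrichment (19.3, 16.1 and 14.8) and the most tags (8.78, 9.38 and 11.5 M). MA replicate 11 had the fewest (6.05 M). The order was not the same throughout, since MA replicate 5 (7.85 M) had 10.1 and MA replicate 4 (6.31 M) had 12.2. The part of depth in the differences between tumors was not tested.

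**Figure D1:**
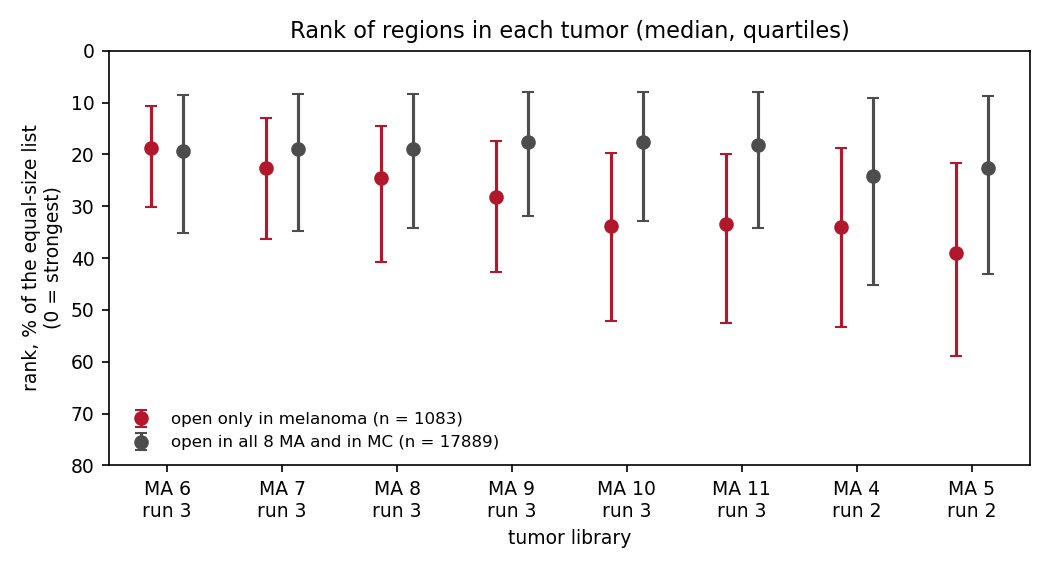
Median rank (points) and quartiles (bars) of regions in the 57910 strongest intervals of each tumor library, as a percent of the list with 0 at the top as strongest, for the 1083 regions open only in melanoma (red) and the 17889 other regions open in all 8 MA libraries (gray). The red medians run from 18.8% in MA replicate 6 to 39.0% in MA replicate 5, and the gray medians from 17.6% to 24.1%.

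Fold enrichment was then centered in each library on its median over the 8298 regions open in all 12 reduced lists, so that tumors could be compared on a log2 scale. On this scale the melanoma-only regions had medians between -0.94 in MA replicate 11 and -0.15 in MA replicate 6, against -0.44 to -0.13 for the other regions open in all tumors. MA replicate 6 had the highest centered value of the 8 tumors at 386 of the 1083 melanoma-only regions (35.6%) and at 19.8% of the other regions. MA replicate 10 had the lowest at 258 (23.8%), against 15.1% of the others, and MA replicate 11 at 230 (21.2%), against 19.9%. Each of the 8 tumors led at some melanoma-only regions, MA replicate 10 at the fewest (47).

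Melanoma-only regions also varied more between tumors. The SD of the centered log2 fold enrichment over the 8 tumors had a median of 0.48 at these regions, against 0.39 at the other regions open in all 8 MA libraries and 0.34 at those open in all 12. The median SD was also higher in melanoma-only regions than in the others within each of the 5 classes of strength. In the strongest class the values were 0.32 and 0.23, and in the weakest 0.50 and 0.45. The classes do not make strength equal. The melanoma-only share rose from 0.922% in the strongest class to 9.17% in the weakest, so these regions can also be weaker within a class. The part of strength in the higher SD was not tested. The Spearman correlation of fold enrichment over the 1083 regions averaged 0.427 over the 28 pairs of tumors (from 0.289 to 0.679), against 0.660 over the other regions. A correlation over regions also depends on how widely their values span. Mean fold enrichment spanned less at the melanoma-only regions (quartiles 10.3 and 15.8) than at the others (11.5 and 20.8). The part of this span in the lower correlation was not tested. The closest pair was MA replicates 7 and 8, and the least alike were MA replicates 5 and 9.

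Most of the regions were a single interval in each tumor. Their merged width had a median of 386 bp (quartiles 315.5 and 469.5, from 119 to 879 bp), close to the 371 bp of the other regions open in all 8 tumors. Both were wider than the regions of the whole series, which had a median of 163 bp. At least 500 bp were spanned by 204 melanoma-only regions (18.8%), against 24.2% of the others and 4.89% of all regions. Only 3 melanoma-only regions were between 119 and 121 bp wide. A single interval in each of the 8 tumors was found at 93.3% of melanoma-only regions, against 84.5% of the others. The strongest summit moved more from tumor to tumor, with a median range of 60 bp over the 8 tumors, against 33 bp. The range was at most 50 bp at 41.4% of melanoma-only regions and at 65.6% of the others. The mean pileup at the summit was also lower, with a median of 4.14 per M tags against 5.03 at the others, and its part in this difference was not tested.

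The tumor pileups, which are whole tag counts recovered from the deposited scores, were set beside the lowest pileup that each MC library called. At the genome-wide background of each MC library, the lowest pileup called was 5 tags in MC_Het replicate 4, 8 in MC_Het replicate 5, 6 in MC_Het replicate 6 and 5 in MC_Homo. Per M tags these levels were 0.646, 0.325, 0.564 and 0.779. The melanoma-only regions had a mean pileup over the 8 tumors with a median of 4.14 per M tags, which was 6.40 times the call level of MC_Het replicate 4, 12.7 times that of MC_Het replicate 5, 7.33 times that of MC_Het replicate 6 and 5.31 times that of MC_Homo (medians of the ratios). That all regions lay above these levels follows from their choice, since the lowest pileup kept in a reduced MA list was already 0.920 to 1.27 per M tags over the 8 tumors. The call level holds where the local background of the MC library is at its genome-wide value, and the MC pileup at these regions is not in the peak lists.

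**Figure D2:**
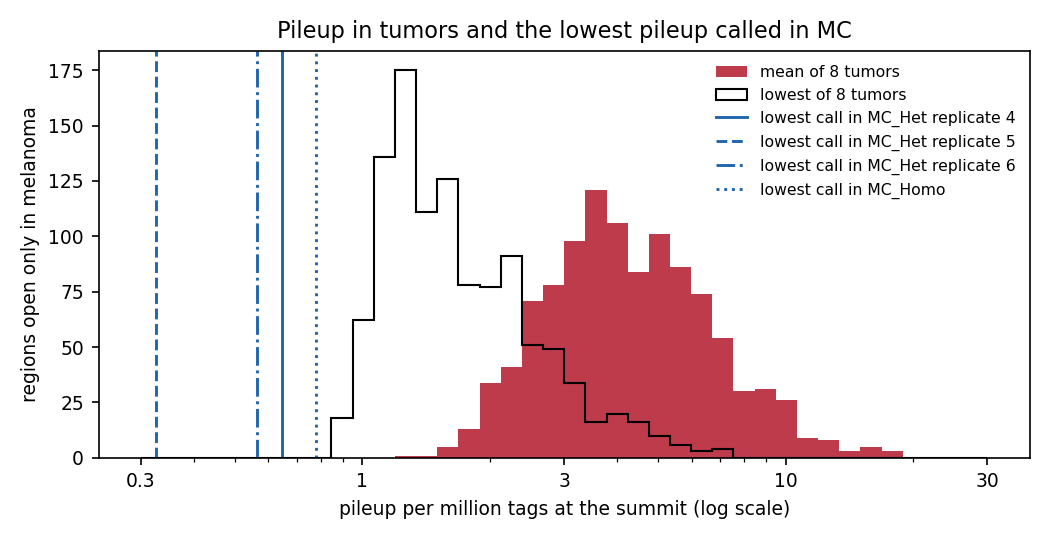
Number of melanoma-only regions by summit pileup per M tags (log scale), as the mean of the 8 tumors (red) and as the lowest of the 8 tumors (black outline), with the lowest pileup called in each MC library at its genome-wide background (blue lines). The red distribution has a median of 4.14 per M, and the blue lines lie between 0.325 and 0.779 per M, below the lowest pileup that the reduced MA lists keep.

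Whether such regions hold in a library that took no part in choosing them was examined by leaving out each library in turn, choosing regions by the other 11 and looking in the library left out. With a tumor left out, the chosen regions were found again in its reduced list in 74.8% (MA replicate 11) to 99.1% (MA replicate 6) of cases, with a mean of 89.6% ± 8.17 (SD, n = 8) and a median of 91.1%. Regions of any MC state found in the other 7 tumors were found again in 89.7% to 98.2%, with a mean of 95.2% ± 3.14 (SD, n = 8). The share was below this background in 7 of 8 tumors. Melanoma-only regions also ranked lower in the tumors (median mean rank 19216, against 13577 for the other regions open in all 8). Depth differed between tumors as well, with 6.05 M tags in MA replicate 11 and 8.78 M in MA replicate 6. The parts of strength and depth in the lower shares were not tested. In the complete list of the tumor left out, the chosen regions were found in 82.5% (MA replicate 11) to 99.6% (MA replicate 6). The difference from the background in the reduced lists was -14.9 percentage points in MA replicate 11, -9.42 in MA replicate 5 and 0.869 in MA replicate 6. MA replicates 6 to 9, in which the set ranked highest, were also the 4 tumors with the highest shares (92.8% to 99.1%).

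With an MC library left out, regions open in all 8 tumors and absent from the other 3 MC libraries seldom had an interval in its complete list, with the exception of the deepest library. An interval was present at 123 of 1206 regions in MC_Het replicate 4 (10.2%), 132 of 1215 in MC_Het replicate 6 (10.9%) and 84 of 1167 in MC_Homo (7.20%). Over all regions open in the 8 tumors these shares were 69.2%, 73.9% and 56.0%. The regions chosen for these libraries already lacked an interval in the complete list of MC_Het replicate 5, which held 266537 intervals. The background also includes regions that the other MC libraries called. Low shares are therefore set in part by the choice, and the comparison with the background is a description. In MC_Het replicate 5 an interval was present at 1973 of 3056 regions (64.6%), against 92.0%. After MC_Het replicate 5 was thinned to 6.05 M tags, 586 of the 3056 regions (19.2%) had an interval. Depth thus moved with this share. When all 12 lists were thinned to 6.05 M tags before regions were chosen, an alternative added after seeing the data, the shares of the 4 MC libraries lay between 14.4% and 22.5%.

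**Figure D3:**
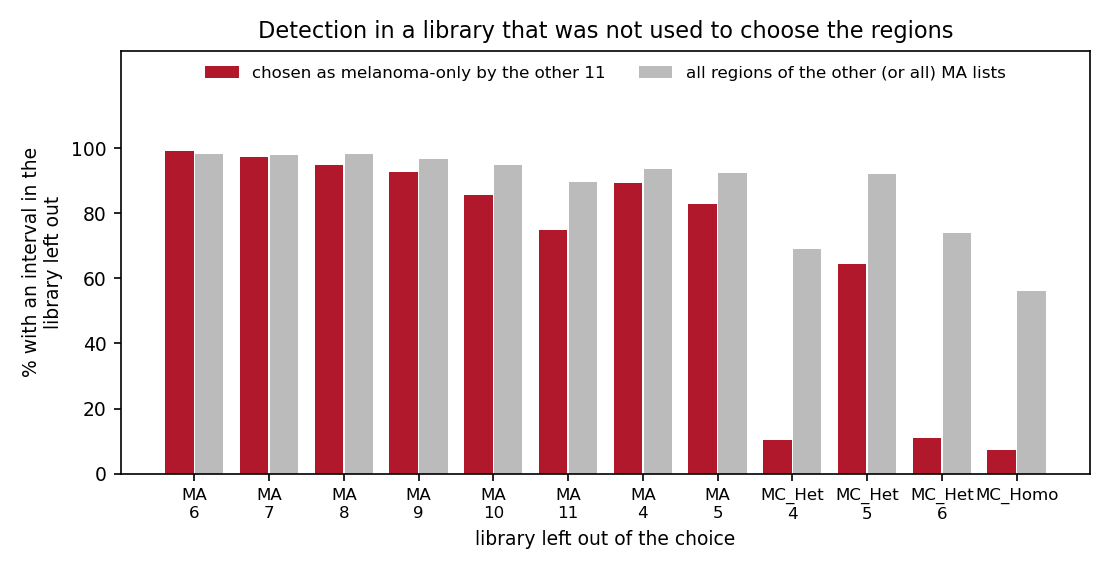
Percent of regions with an interval in a library that was left out of the choice, for regions chosen as melanoma-only by the other 11 libraries (red) and for all regions found in the other 7 MA lists or, for MC, in all 8 MA lists (gray). Red bars run from 74.8% to 99.1% in MA libraries, and are 10.2%, 64.6% and 10.9% in MC_Het replicates 4, 5 and 6 and 7.20% in MC_Homo.

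The intervals that MC_Het replicate 5 had at those 1973 regions were low. The median pileup was 14 tags, or 0.569 per M, whereas the mean pileup of the tumors at the same regions had a median of 4.26 per M. The ratio of MA to MC_Het replicate 5 had a median of 7.51 (quartiles 4.91 and 11.5), and MA was higher at all 1973 regions. Much of this is set by the choice of the regions. They had to lie in the reduced lists of all 8 tumors, where the lowest pileup kept was 0.920 to 1.27 per M. They also had to lack an interval in the other MC libraries. The ratio is therefore a description. These regions were excluded from the melanoma-only set by weak signal in 1 deep MC library, and their tumor pileups were close to the 4.14 per M of the set itself. The 3 regions that lay just outside the definition, by the lowest −log10 p of a lone MC interval, were chr17:45921797-45922074, chr23:17347153-17347556 and chr25:34446041-34446394, each with 1 weak interval in MC_Het replicate 5 (−log10 p between 2.76 and 2.77). Fold enrichment over the 8 tumors was 4.79 to 32.0 (median 11.6) at the chromosome 17 region, 4.79 to 25.7 (median 13.1) at the chromosome 23 region and 7.17 to 20.7 (median 14.2) at the chromosome 25 region.

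Just inside the definition were the regions with the worst rank in any tumor. They were chr24:26588770-26589172 (rank 57867 of 57910 in its weakest tumor), chr10:44294338-44294636 (57862) and chr16:25404045-25404433 (57738). At chr24:26588770-26589172 fold enrichment was 4.24 to 13.8 over the 8 tumors, with a median of 7.35. At chr10:44294338-44294636 it was 4.13 to 16.5, with a median of 10.7. At chr16:25404045-25404433 it was 4.63 to 22.1, with a median of 13.7. The best ranks of the same regions were 18649, 7607 and 5607, so each was well inside the list of at least 1 tumor.

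The 10 melanoma-only regions with the best mean rank carried the strongest tumor signal. The strongest was chr9:1075308-1075543, a region of 236 bp with a mean rank of 1560. Its fold enrichment was 46.0, 44.0, 45.2, 37.8, 29.0 and 33.5 in MA replicates 6 to 11 and 30.5 and 26.9 in MA replicates 4 and 5. All 8 tumors lay above 26, and a single summit was called in each, within 30 bp of each other. The tags behind these values were between 47 (MA replicate 5) and 236 (MA replicate 8). The nearest MC interval was 3251 bp away.

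The next was chr11:30873166-30873698, with a mean rank of 2213 and a fold enrichment of 18.2 to 44.4 (median 34.1), followed by chr6:124379-124823, with a mean rank of 2661 and 10.1 to 19.7 (median 15.5). The chr6 region had the lower fold enrichment of the pair but the higher mean pileup, 18.2 per M tags against 13.9 at the chr11 region. At chr19:10901863-10902296 fold enrichment was 15.9 to 39.1 (median 26.8), and at chr13:41058576-41059331, which spans 756 bp and had 2 or 3 summits in every tumor, it was 10.8 to 20.9 (median 17.3). The chr13 region was also among the 5 least variable of the set, with an SD of 0.16 on the centered log2 scale. A second region on chromosome 9, chr9:14746401-14746886, had values of 14.1 to 29.6 (median 21.6).

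Chromosome 23 held 2 of the 10. At chr23:40695695-40696089 fold enrichment was 19.1 to 38.8 (median 27.9), and at chr23:22781640-22781885 it was 17.4 to 50.4 (median 33.7). The second of these was far from any MC call, with the nearest MC interval 54356 bp away. The remaining 2 regions were chr15:44127147-44127476, at 12.4 to 35.1 (median 28.1), and chr20:26307611-26307920, at 18.1 to 48.8 (median 32.1), with MC intervals 529 and 472 bp away. MA replicate 6 had the highest fold enrichment at 9 of the 10 regions and MA replicate 11 the lowest at 7. MA replicates 6 and 11 also had the highest and the lowest median fold enrichment over the whole set, and at no region did any tumor fall below 10.

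**Figure D4:**
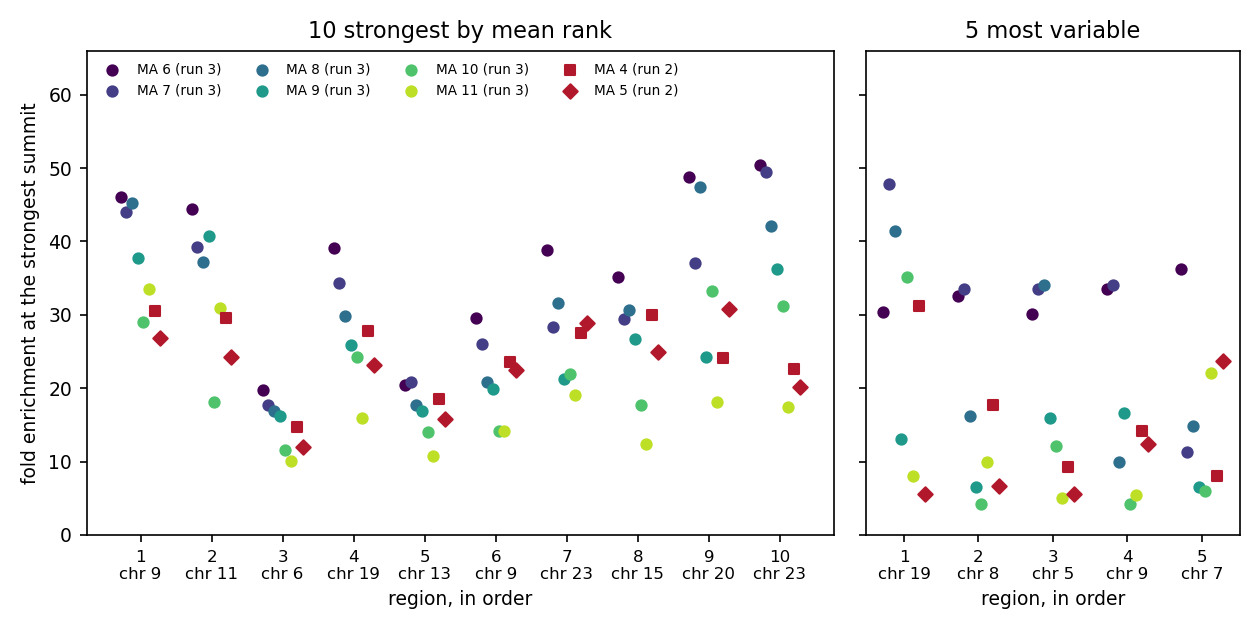
Fold enrichment at the strongest summit in each of the 8 tumors (circles, run 3; squares and diamonds, run 2) for the 10 melanoma-only regions with the best mean rank (left) and the 5 with the largest SD between tumors (right), in order and labeled by chromosome. MA replicate 6 is highest at 9 of the 10 regions on the left, and values on the right run from 4.24 to 47.8.

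The most variable regions were called in every tumor but differed several-fold. At chr19:32343483-32343746 (SD 1.06 on the centered log2 scale) fold enrichment was 30.4, 47.8, 41.4, 13.0, 35.1 and 8.10 in MA replicates 6 to 11 and 31.3 and 5.60 in MA replicates 4 and 5. Values were low in MA replicates 5, 9 and 11 and high in the other 5 tumors, with no split by run. This region lay 28152 bp from the nearest MC interval. The other 4 were chr8:38043038-38043400 (4.24 to 33.5, median 13.1), chr5:24490693-24491053 (4.99 to 34.0, median 14.1), chr9:7873234-7873642 (4.24 to 34.1, median 13.3) and chr7:17192863-17193244 (6.05 to 36.3, median 13.1). MA replicate 7 was highest at 3 of the 5, and MA replicate 10 lowest at 3. The low values rest on few tags, such as 9 tags in MA replicate 5 at the chromosome 19 region, against 118 in MA replicate 7.

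The least variable regions had the smallest SD of centered log2 fold enrichment over the 8 tumors. The lowest SD was 0.14, at chr24:6368220-6368544, with fold enrichment of 16.5 to 31.7 (median 23.4). The others were chr13:41058576-41059331, described above, chr9:47501059-47501492 (15.8 to 25.3, median 18.4), chr9:54810551-54811035 (7.26 to 12, median 9.24) and chr5:14390106-14390333 (5.08 to 8.35, median 6.95). Regions with even signal were thus found at high and at low fold enrichment. The chr5 region lay 82 bp from an MC interval, so its absence from MC depends on where the interval ends.

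The widest regions held more than 1 summit in some or all tumors. The widest, chr22:11160151-11161029, spanned 879 bp and had 2 or 3 summits in each tumor, and its fold enrichment was low at 3.65 to 12.1 (median 6.53). Next were chr5:42852954-42853808 with 855 bp (11.4 to 31.5, median 19.6), chr23:36562223-36563045 with 823 bp (6.23 to 27.5, median 15.5), chr19:15338632-15339448 with 817 bp (4.62 to 20.8, median 9.76) and chr24:14351810-14352616 with 807 bp (9.09 to 19.6, median 15.7). The mean rank of these 5 ran from 6185 (chromosome 24) to 25649 (chromosome 19), against a median of 19216 over the set. It was under 10000 at the chromosome 5 and chromosome 24 regions, as at 136 of all 1083 melanoma-only regions. No relation of width to strength is read from these 5.

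The distance from each melanoma-only region to the nearest MC interval was measured. The same distance is not given for other regions or for random positions, so closeness to MC calls is not read as a trait of the set. The nearest MC interval was at a median distance of 1541 bp (quartiles 573 and 2544.5), and 248 regions (22.9%) had one within 500 bp. Only 35 (3.23%) had none within 10 kb, and the largest distance was 105707 bp. The near intervals were mostly those of the deepest library, since 212 regions had an interval of MC_Het replicate 5 within 500 bp and 48 to 67 had one of each other MC library. The median distance was 1711 bp to MC_Het replicate 5, 3589 bp to MC_Het replicate 6, 4235 bp to MC_Het replicate 4 and 5634 bp to MC_Homo. These distances rise in the order in which the number of intervals falls (266537, 93511, 80522 and 57910). The nearest region open in all 8 tumors with an MC interval was 12555 bp away (median), and 31 melanoma-only regions (2.86%) had one within 500 bp.

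Most melanoma-only regions had no other melanoma-only region within 50 kb, but more of them had one than did the other regions open in all tumors. In windows of 100 kb that began at a melanoma-only region, 774 held 1, 125 held 2 and 19 held 3, and no window held more. Such windows were not counted for other regions. The first 5 windows with 3, in genome order, began at chr6:124379, chr7:27354043, chr7:41150585, chr8:25159363 and chr9:3303173, and held 9, 6, 6, 8 and 6 regions open in all 8 tumors. The first of these includes chr6:124379-124823 named above, and in all 5 windows each MC library also had intervals, between 5 and 48 per window. Within 50 kb, 195 of the 1083 regions (18%) had another melanoma-only region, against 13.2% of the other regions open in all tumors. Of the neighbors of melanoma-only regions in all 8 tumors, 7.75% were melanoma-only, against 6.0% of the neighbors of the others.

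Chromosomes differed in how many of their shared tumor regions lacked an MC call. On chromosome 9, 101 of 1029 regions open in all 8 tumors (9.82%) were melanoma-only, and on chromosome 18, 74 of 784 (9.44%), against 5.71% over all chromosomes. Chromosome 7 followed with 80 (7.53%), chromosome 23 with 53 (7.20%) and chromosome 10 with 52 (7.03%). The lowest share was on chromosome 16, with 16 of 613 regions (2.61%). On chromosome 9 the 101 melanoma-only regions were spread over all 12 bins of 5 Mb and on chromosome 18 the 74 over all 11. The 16 regions of chromosome 16 were found in 9 of 12 bins. So few regions can fill fewer bins by their number alone, so the spread is not compared between these chromosomes. Among bins with at least 30 regions open in all 8 tumors, the densest was at 50 to 55 Mb of chromosome 18, where 8 of 30 regions (26.7%) were melanoma-only.

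**Figure D5:**
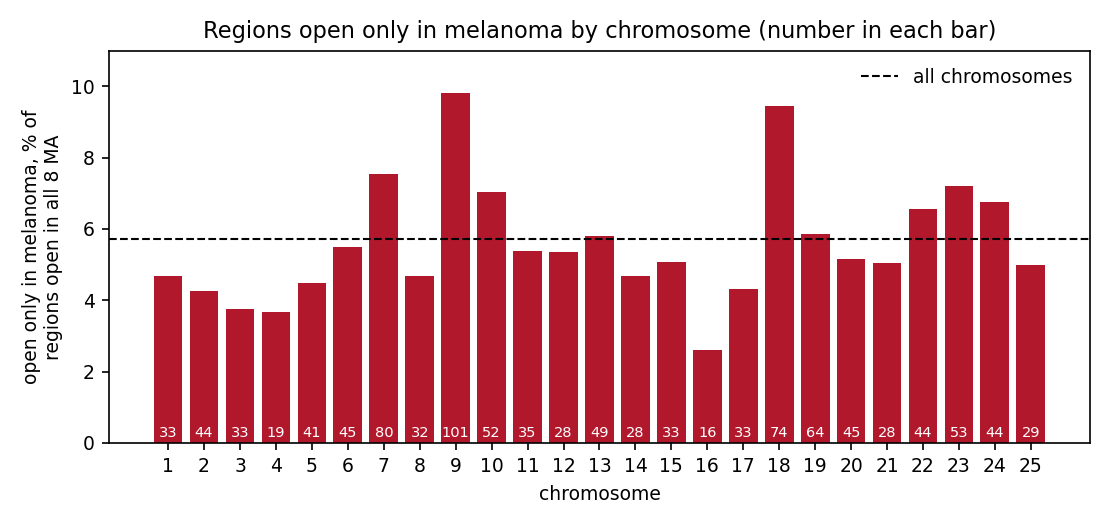
Melanoma-only regions as a percent of the regions open in all 8 MA libraries, by chromosome, with their number in each bar and the share over all chromosomes (5.71%) as a dashed line. Chromosomes 9 (9.82%) and 18 (9.44%) are highest, and chromosome 16 (2.61%) is lowest.

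The share of all called intervals that lay on a chromosome moved with this. Chromosome 9 held 5.59% of MA intervals (4.25% to 7.82% over the 8 tumors) and 4.44% of MC intervals (4.38% to 4.53%), and chromosome 18 held 4.09% of MA intervals (3.36% to 5.04%) and 3.30% of MC intervals (3.24% to 3.4%). On chromosome 16 the order was the opposite, with 3.36% of MA intervals (1.98% to 4.83%) and 4.56% of MC intervals (4.46% to 4.67%). Over the 25 chromosomes, the percent of shared tumor regions that were melanoma-only and the ratio of MA to MC interval share had a Spearman correlation of 0.714 (Pearson 0.755), which is a description, since both measures come from the same 12 peak lists. The part of chromosome-wide signal in the melanoma-only calls was not tested.

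Tumors can also be compared by sequencing run, which the definition did not use among the MA libraries. All 4 MC libraries that define absence are of run 2, however, and the lists were cut on the same ranks, so differences between runs at the melanoma-only regions can be set in part by how the regions were chosen. The comparison of run 3 (6 MA libraries) with run 2 (2 MA libraries) asks whether the strength of the set goes with the run rather than with each tumor. The median rank of the melanoma-only regions was 26.9% ± 6.03 of the list in run 3 (SD, n = 6), against 36.5% ± 3.56 in run 2 (SD, n = 2), a difference of -9.57 percentage points. The 6 run 3 tumors lay between 18.8% and 33.8% and the pair of run 2 tumors at 34.0% and 39.0%, so the runs did not overlap. The difference missed the threshold of 0.05 in a two-sided exact permutation test (28 splits, p = 0.107; adjusted p = 0.536 by Benjamini-Hochberg for 5 measures). With 6 against 2 libraries the smallest p is 0.0357. The other regions open in all 8 tumors also ranked better in run 3, by -4.91 percentage points (exact permutation p = 0.0357, adjusted p = 0.179). These p-values come from the ranks on which the lists were cut, so they do not decide whether strength goes with the run.

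The other 4 measures of the set overlapped between runs. Median log2 fold enrichment was 3.62 ± 0.52 in run 3 (SD, n = 6) and 3.47 ± 0.19 in run 2 (SD, n = 2), a difference of 0.15 (exact permutation p = 0.75). Median pileup was 4.06 ± 1.71 per M tags in run 3 and 3.54 ± 1.04 in run 2 (SD, n = 6 and 2), a difference of 0.521 (exact permutation p = 0.75) that turned to -0.216 without MA replicate 5 and to -0.0340 without MA replicate 6. Median interval width differed by 3.83 bp (exact permutation p = 0.857) and the number of intervals per region by 0.0048 (exact permutation p = 0.536). Each adjusted p was 0.857. The difference in width had the opposite sign without MA replicate 5, 6, 7 or 8 (-5.17, -2.80, -1.80 and -3.20 bp).

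Pairs of tumors of the same run were on average more alike over the set than pairs of different runs. The Spearman correlation of fold enrichment was 0.466 ± 0.117 in 16 pairs of the same run and 0.375 ± 0.0915 in 12 pairs of different runs (SD over pairs, which share libraries). The difference of 0.0912 missed the threshold (p = 0.107, exact permutation with 28 splits, two-sided). Over the other regions open in all 8 tumors the means were 0.680 and 0.634, a difference of 0.0463 (exact permutation p = 0.143). The difference over the melanoma-only regions rested in part on which tumors were included, and lay between 0.0625 and 0.135 over all 8 tumors left out in turn. It was 0.117 without MA replicate 6 and 0.135 without MA replicate 11, each with p = 0.0476 (exact permutation, 21 splits, which allow no smaller p). Without MA replicate 7, 8, 9 or 10 it was 0.0625 to 0.112, with p between 0.0952 and 0.238 (exact permutation, 21 splits). Without MA replicate 4 it was 0.102 and without MA replicate 5 it was 0.0728. The settings past the threshold are picked from 8, so no result is read from them. MA replicate 6 was most like the other 7 tumors, with a mean correlation of 0.505, and MA replicate 11 the least, with 0.347.

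Single regions were compared between runs with limma on centered log2 fold enrichment, fitted on all 18972 regions open in the 8 tumors. None of the 1083 melanoma-only regions passed an adjusted p of 0.05, where 0.00527% of all regions (1 region) did. At an unadjusted p under 0.05 there were 104 melanoma-only regions (9.60%), 70 higher and 34 lower in run 3, against a background of 8.88% of all regions, so the share of the set was near that of all regions. The lowest adjusted p in the set was 0.0985 (limma, Benjamini-Hochberg), at chr1:1291343-1291815, with a log2 difference of 1.57 (SE 0.27). This region was chosen after its values were seen. Its fold enrichment was 18.1, 21.3, 21.7, 17.9, 19.7 and 8.72 in MA replicates 6 to 11, against 5.52 and 5.60 in MA replicates 4 and 5, and the runs did not overlap.

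Over the whole set the log2 difference between runs had a median of 0.04, against 0.01 over all regions fitted. This sign depended on the scale, with 0.10 (0.07 over all regions) when libraries were not centered and -0.01 (-0.04 over all regions) when they were centered on all regions fitted. It was also negative without MA replicate 5 (-0.11), MA replicate 6 (-0.04) or MA replicate 7 (-0.01). No direction by run is therefore given for the set.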

How the data were processed

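One peak list per library was used, for 8 MA and 4 MC ATAC-seq libraries grouped by their labels. According to the study's methods, up to 50000 sorted cells were tagmented, CutAdapt removed adapters, BWA placed the reads on GRCz11, properly paired reads of mapping quality over 30 were kept, duplicates were removed with MarkDuplicates, and MACS2 called peaks in each library separately without a control (effective genome 1e+09 bp, shift -50, extension 100 bp). Versions were not given in the sources used here. Each library was called on its own, so absence from a list depends on depth. The fold enrichment deposited per peak is a ratio of pileup to local background, with the same constant added to both. The −log10 of the p-value and of the q-value were deposited by the authors beside it.

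Lines differing only in summit were collapsed to 1 interval. Each pileup and background was solved from the deposited ratio and −log10 p (whole within 0.02 for at least 99.998% of peaks), and tags were taken from the most frequent background. A region took the value of its strongest interval per library. Thinning to 6.05 M tags worked on the peak lists with a lowest −log10 p of 3.39. Reads were not sampled and peaks were not called anew, so a thinned list can differ from that of a library sequenced to this depth. Tests were two-sided exact permutation tests over libraries and limma 3.58.1 (R 4.3.3) on log2 fold enrichment, with other steps in Python 3.11.15. The overlap and merging of intervals, the choice of regions, the solving of pileups and the limma fit were tested on simulated data. Each library came from its own fish.

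Members and lists were chosen with earlier results of these data known. Regions were named by rule as the 10 with the best mean rank, the 5 widest, the first 5 densest windows, the 3 nearest to each side of the definition and the 5 most and least variable. Alternatives were other list lengths, thresholds, overlaps, thinning, centering and leaving out libraries. Motifs, gene lists and neighboring genes had been planned and were not run, since no sequence or annotation of this assembly was used here.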

Additional observations from a re-analysis of the deposited data

Results flagged for a closer look

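Fold enrichment over the 8 tumors was examined for a single tumor far from the other 7, in 48 groups of 8 values (41 named melanoma-only regions and per-tumor summaries). Of these, 3 groups stood out, which is near the share of about 1 in 20 that chance alone gives for values not chosen beforehand. Many of the regions were named for the strength or the spread of these same values, so that share need not hold here. The 3 are described only, and nothing is concluded from them. At chr7:27416471-27416854, which lies in the second of the densest windows, MA replicate 6 had a fold enrichment of 25.8 and the other tumors between 7.42 and 15.7. At chr9:47501059-47501492, 1 of the 5 least variable regions, MA replicate 6 had 25.3 and the others between 15.8 and 19.9. At chr9:3332164-3332554, in the fifth of the densest windows, MA replicate 11 had 5.61 and the others between 8.56 and 10.8. MA replicate 6 was the tumor with the highest median fold enrichment over the set and MA replicate 11 the one with the lowest.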

How the results depend on the processing

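The number of melanoma-only regions moved with the number of tumors required, with list length and with MC depth. It was 597 with the 40000 strongest intervals per library, 223 with 25000, 1731 with complete MA lists, 3531 with reduced MC lists for absence, 2639 with all lists thinned to 6.05 M tags, 3812 in run 2 alone (2 tumors) and, as alternatives chosen after seeing the data, 2470 with MC_Het replicate 5 alone thinned and 1608 with run 3 tumors alone. With 1 library left out at a time it was 1097 to 3056, the highest without MC_Het replicate 5. The other settings gave between 835 (no MC interval within 500 bp) and 1157 (−log10 q of at least 2), 1114 with a stricter overlap and 879 without intervals near 120 bp. Of the 1083 regions, 957 (88.4%) were overlapped by a region of the thinned set.

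Between runs, the difference in median rank lay between -12.1 and -1.93 over 11 alternatives (lowest unadjusted p 0.0714, exact permutation) and between -12.1 and -7.05 with each tumor left out. Pileup turned to -0.216 and -0.0340, and width to -5.17, -2.80, -1.80 and -3.20, without the tumors named in the report, with leave-one-out ranges of -0.216 to 1.26 per M and -5.17 to 14 bp. The similarity by run ranged from 0.0625 to 0.135. No melanoma-only region was called by limma in any of 13 alternatives. Detection in a tumor left out averaged 87.5% to 90.5% and in an MC library left out 18% to 27.6% over 4 alternatives added after seeing the data. The causes were not tested. No paired analysis was possible because MA libraries of the 2 runs share no replicate number, and MA and MC were not tested against each other.

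Absence is a missing call in 4 peak lists, 1 of them from a single MC_Homo fish, and no read counts at the regions were used here. Depth, run, reporter and tissue differ between MA and MC, and their parts were not tested.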

Other observations

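Over 25 chromosomes and 8 tumors (200 pairs of values), the log2 share of a tumor's intervals that lay on a chromosome and the median log2 fold enrichment of the melanoma-only regions on it had a Spearman correlation of 0.258 (Pearson 0.291) as the values stand, and the correlation across the 8 tumors was positive on 13 of 25 chromosomes. After the mean of each chromosome was taken off both and the mean of each tumor off the fold enrichment, the Spearman correlation was 0.792 (Pearson 0.815), positive on 24 of 25 chromosomes. At the other regions open in all 8 tumors the values were 0.232 as they stand (17 of 25 chromosomes positive) and 0.935 after the means were taken off (25 of 25). Both quantities come from the same peak lists, so these are descriptions, and the way they were centered was chosen after seeing the data.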
